A study of Homo sapiens with 24 samples.

Results

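The genes described here encode enzymes that remove acetyl groups from histones and other proteins (the zinc-dependent histone deacetylases HDAC1 to HDAC11 and the NAD-dependent sirtuins), acetyltransferases and coactivators that add or recruit acetyl groups, bromodomain proteins that bind acetylated lysine, and subunits of the SIN3, NuRD, CoREST and NCoR co-repressor complexes that carry deacetylases to chromatin. A fixed list of 45 genes was matched to the gene names printed on the array, out of 27264 gene names in all. All 45 had at least 1 probe, 70 probes together.

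Expression had been measured in a clone of HCT-116, a human colorectal cancer (CRC) cell line, stably carrying a Tet repressor and a Tet-inducible dominant negative Tcf4 (DN-Tcf4), a truncated Tcf4 that competes with the beta-catenin complex for Wnt target sites. All 4 treatments used this clone: no agent (Ctl), 5 mM sodium butyrate (NaB), 4 μg/ml doxycycline (Doxy), and doxycycline with butyrate (DoxyNaB). By the paper's methods, doxycycline was given first, and the cotreatment that followed, with butyrate or without it, lasted 17.5 hr. How long doxycycline was given beforehand is not stated there. Each treatment was run in 6 experiments, giving 24 Agilent arrays, and the results hold for this clone at this dose and time. The comparisons NaB/Ctl and DoxyNaB/Doxy ask what butyrate changed without and with doxycycline; Doxy/Ctl and DoxyNaB/NaB ask what doxycycline changed; the interaction asks whether the butyrate change differed with doxycycline.

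Butyrate is a short-chain fatty acid made by gut bacteria from fiber, and it inhibits class I and class IIa deacetylases but not sirtuins. Deacetylases of class I work mostly as the catalytic subunits of large complexes: HDAC1 and HDAC2 in SIN3, NuRD and CoREST, HDAC3 in NCoR. The transcript levels given here say nothing of enzyme activity.

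A level is the log2 processed signal of a probe relative to the 75th percentile of its array. A gene is represented by its brightest tested probe; a member was called in a butyrate comparison at an adjusted p under 0.01 with a change over 2-fold, and in the other comparisons at an adjusted p under 0.01 (limma, with the experiment as a block). Levels are shares of the hybridised RNA of a culture, so that a lower level in every cell and fewer cells with the transcript cannot be told apart. HDAC9 and NCOA2 had no probe well above background on all arrays of any treatment and were not tested, which left 43 members; the levels of HDAC9 ran from -7.56 to -3.52 and those of NCOA2 from -7.43 to -2.12 over all arrays. Of the tested members, 39 had a representative probe well above background on all 24 arrays.

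Arrays differed in signal over background. Between 78.4% and 88.1% of probes were well above background on the arrays of experiments 2 to 4, and between 52.7% and 62.6% on those of experiments 1, 5 and 6. Mean negative control signals lay between 48.4 and 115 on 22 arrays, at 161 on the NaB array of experiment 3 and at 248.9 on the DoxyNaB array of experiment 2. The butyrate arrays of experiment 1 lay on another slide and scan than its other arrays. As a check of the system, TCF7L2, which encodes Tcf4, was 2.96 ± 0.36 (log2, SE, n = 6) higher in DoxyNaB than in NaB (adjusted p = 3.65e-05) but was at -0.17 in Doxy/Ctl (adjusted p = 0.921); its other probes were at 4.46 and -1.25 in the former comparison. The Wnt target AXIN2 was at -2.53 ± 0.09 in DoxyNaB/NaB (adjusted p = 2.63e-11) and at -0.58 in Doxy/Ctl (adjusted p = 0.0029). Of 6 colon epithelial markers, 5 were tested, all but VIL1; of 7 leukocyte, endothelial or fibroblast markers, CD68, CDH5 and COL1A1 were tested. PTPRC, CD3E, PECAM1 and COL1A2 were not. The summed level of the epithelial markers, on the linear scale where 1 is the array's 75th percentile, ran from 168.4 to 227.7 in Ctl, 193.6 to 326.7 in NaB, 169.9 to 234 in Doxy and 192.3 to 285.9 in DoxyNaB. That of the 7 other markers ran from 0.52 to 1.07 in Ctl, 0.849 to 2.04 in NaB, 0.552 to 1.11 in Doxy and 1.07 to 2.85 in DoxyNaB; their part in the results below was not tested.

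Butyrate called 16 of the 43 tested members in NaB/Ctl, where 32.4% of all 15158 genes tested were called, so that the share among the members was close to that of the whole array. The 16 were 8 higher genes, against 21.0% of all genes, and 8 lower genes, against 11.5%. The higher ones were SIRT4, HDAC10, SIRT2, HDAC11, NCOA1, SAP18, NCOA3 and SIRT7, and the lower ones TBL1XR1, MTA3, MTA1, KAT2A, RBBP4, MTA2, CHD3 and KAT5. The deacetylases called in NaB/Ctl were all higher, 5 of 17 tested, beside the 21.0%. Past the adjusted p at any fold, 8 of these 17 were higher and 2 lower, and in DoxyNaB/Doxy 1 of the 6 called was lower. The NuRD subunits called in NaB/Ctl were all lower, 5 of 8 beside the 11.5%, counted with RBBP4 and RBBP7 but without HDAC1 and HDAC2. By the adjusted p alone, 28 of 43 members passed, against 69.6% of all genes, 13 higher (40.6%) and 15 lower (29.0%). Ctl and NaB arrays did not overlap for 21 of 43 members, against 45.3% of all genes. The median change over the tested members was -0.03, against 0.17 for all genes tested.

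**Figure D1:**
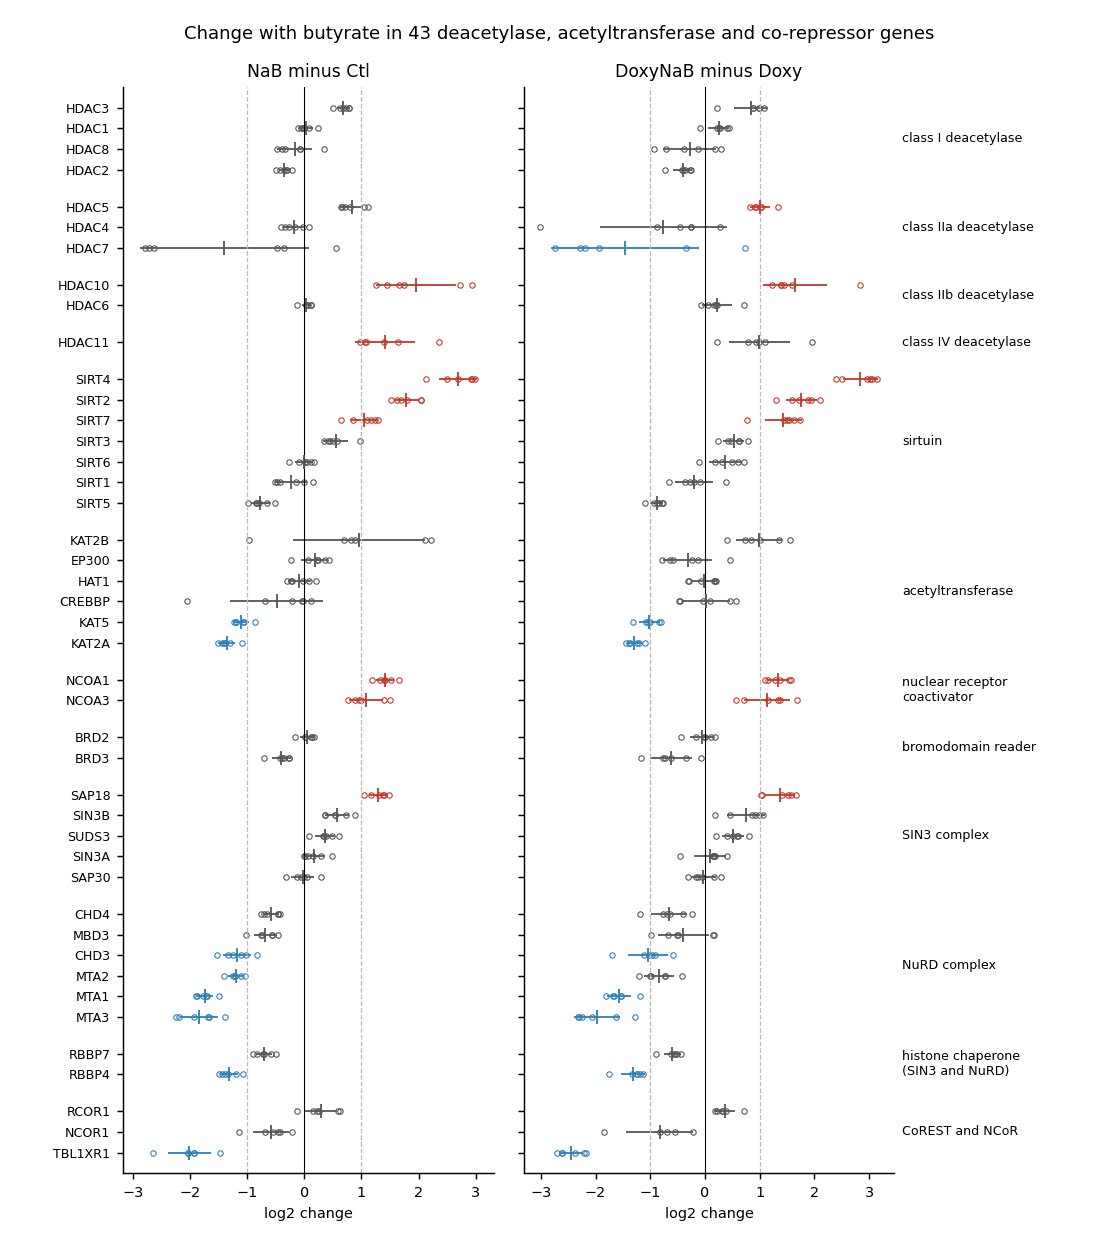
Log2 change of the 43 tested members with butyrate, without doxycycline on the left and with it on the right. Open circles are the 6 experiments, ticks and bars the mean and SD, dashed lines a 2-fold change, and red and blue mark members called higher and lower; the 8 red and 8 blue genes in NaB/Ctl lie to the right and left of the dashed lines.

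Among the sirtuins, the change of SIRT4, a mitochondrial sirtuin, was the highest of all members, 6.46-fold (log2 2.69 ± 0.12, SE, n = 6, adjusted p = 1.25e-12). SIRT4 levels ran from -3.14 to -2.43 with a median of -2.93 in Ctl, and from -0.30 to -0.01 with a median of -0.16 in NaB. With doxycycline, SIRT4 ran from -3.03 to -2.50 (median -2.93) in Doxy and from -0.54 to 0.25 (median 0.03) in DoxyNaB. All 12 butyrate arrays were above all 12 others, and the change lay between 2.13 and 2.98 in the single experiments of NaB/Ctl.

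SIRT2, a mostly cytoplasmic sirtuin that deacetylates tubulin, rose 3.45-fold (log2 1.79 ± 0.09, SE, adjusted p = 6.37e-12). SIRT2 levels ran from -0.51 to 0.06 (median -0.23) in Ctl and from 1.42 to 1.68 (median 1.54) in NaB. In Doxy they ran from -0.29 to -0.07 (median -0.21), and in DoxyNaB from 1.23 to 1.80 (median 1.58). The treatments with and without butyrate did not overlap, and a second SIRT2 probe gave 1.66 in NaB/Ctl and 1.74 in DoxyNaB/Doxy. SIRT7, a nuclear sirtuin associated with ribosomal gene transcription, rose 2.07-fold in NaB/Ctl (log2 1.05 ± 0.11, adjusted p = 1.19e-07) and by 1.43 in DoxyNaB/Doxy, and its other probe by 1.39 and 1.43. Its log2 change in NaB/Ctl was 1.00, not past 2-fold, without experiment 5, 0.95 with the 75th percentile over probes and 0.30 with the array median.

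The other sirtuins changed by less than 2-fold. SIRT3, the main mitochondrial deacetylase, was 0.55 higher in NaB/Ctl (adjusted p = 5.28e-06), with a rise in all 6 experiments. With the array median it was at -0.20 (adjusted p = 0.426), and it was positive under the 3 other scalings tried. SIRT5, a mitochondrial desuccinylase, was lower by its representative probe, -0.77 (adjusted p = 4.77e-09), but its probes disagreed: the other changes were -0.21, 0.01 and 0.70 (adjusted p = 0.000814). SIRT1 changed by -0.23 (adjusted p = 0.079) and SIRT6 by -0.00 (adjusted p = 0.992); SIRT6 was 0.37 higher in DoxyNaB/Doxy (adjusted p = 0.0015).

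Probes of SIRT2, HDAC10 and HDAC11, which were among the deacetylases that rose, are shown. For SIRT2 and HDAC10 they are the representative probes. For HDAC11 they are its other tested probes, at separate positions of the gene. They are 60-base sequences from the array files, 5′ to 3′ in lower case throughout, with NCBI36 positions: SIRT2 at chr19:44071574-44071633 on the minus strand, HDAC10 at chr22:49027515-49028299 on the minus strand, and HDAC11 at chr3:13497834-13497893 and chr3:13518373-13518432 on the plus strand. Each holds at least 1 reading frame without a stop codon. The HDAC10 probe covers 785 bases of genome with its 60 bases, and so spans an exon junction.
SIRT2: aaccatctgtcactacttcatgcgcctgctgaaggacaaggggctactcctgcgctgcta
HDAC10: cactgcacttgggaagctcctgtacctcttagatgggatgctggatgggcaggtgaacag
HDAC11 upstream probe: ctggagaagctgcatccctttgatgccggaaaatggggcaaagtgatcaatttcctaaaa
HDAC11 downstream probe: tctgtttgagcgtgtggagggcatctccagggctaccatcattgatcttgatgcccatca

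Of the 10 tested HDAC genes, 2 were called in NaB/Ctl, HDAC10 and HDAC11, both higher. Of all genes, 32.4% were called in NaB/Ctl, and 21.0% were called higher. HDAC10, a class IIb enzyme that deacetylates polyamines, rose 3.89-fold (log2 1.96 ± 0.23, SE, n = 6, adjusted p = 4.91e-07). HDAC10 levels ran from -4.60 to -3.31 (median -4.19) in Ctl and from -3.0 to -0.91 (median -2.24) in NaB. In Doxy they ran from -4.47 to -2.94 (median -3.66) and in DoxyNaB from -3.09 to -0.49 (median -2.34). Ctl and NaB did not overlap, while Doxy and DoxyNaB did; the change was positive in every experiment, with a mean of 2.47 in experiments 2 to 4 and 1.55 in experiments 5 and 6. With normexp background correction it was 0.86 (adjusted p = 0.0333), short of the call. HDAC10 stood at -1.57 or above on the butyrate arrays with mean negative control signals of 110.9 or more. On the butyrate arrays with 69.06 or less it stood at -2.12 or below, and the part of this background in its values was not tested.

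HDAC11, the only class IV deacetylase, which removes fatty acyl groups, rose 2.68-fold in NaB/Ctl (log2 1.42 ± 0.20, SE, adjusted p = 3.46e-06). HDAC11 levels ran from -3.17 to -2.44 (median -2.52) in Ctl and from -2.21 to -0.80 (median -1.27) in NaB. The range was -2.97 to -1.97 (median -2.50) in Doxy and -2.19 to -0.48 (median -1.62) in DoxyNaB. Ctl and NaB did not overlap. The upstream and downstream probes printed above gave 1.10 and 1.09, and experiments 2 to 4 averaged 1.80 against 1.08 in experiments 5 and 6. The change was under 2-fold with normexp (0.848) and the array median (0.671). In DoxyNaB/Doxy the change was 1.00 with an adjusted p of 0.000183, just short of 2-fold. HDAC11 stood at -1.12 or above on the butyrate arrays with mean negative control signals of 110.9 or more. On the butyrate arrays with 69.06 or less it stood at -1.42 or below, and the part of this background was not tested.

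None of the 4 class I deacetylases was called, where 32.4% of all genes were in NaB/Ctl and 31.1% in DoxyNaB/Doxy. HDAC3, the catalytic subunit of NCoR, was 0.68 ± 0.09 higher in NaB/Ctl (log2, SE, adjusted p = 1.24e-06) and 0.83 higher in DoxyNaB/Doxy (adjusted p = 9.27e-08). HDAC3 levels ran from 2.43 to 2.63 (median 2.54) in Ctl, 3.11 to 3.34 (median 3.21) in NaB, 2.31 to 2.63 (median 2.45) in Doxy and 2.72 to 3.5 (median 3.39) in DoxyNaB. Neither butyrate comparison overlapped. The HDAC3 change in NaB/Ctl was -0.07 with the array median (adjusted p = 0.805) and positive under the 3 other scalings tried. HDAC1 changed by 0.02 ± 0.07 in NaB/Ctl (adjusted p = 0.773) and was 0.25 higher in DoxyNaB/Doxy (adjusted p = 0.003). HDAC1 levels ran from 3.44 to 3.71 (median 3.62) in Ctl, 3.37 to 3.94 (median 3.58) in NaB, 3.34 to 3.70 (median 3.44) in Doxy and 3.31 to 3.97 (median 3.81) in DoxyNaB, so that all 4 treatments overlapped.

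HDAC2, which pairs with HDAC1 in SIN3 and NuRD, was lower in NaB/Ctl (-0.35 ± 0.06, adjusted p = 6.1e-05), and the difference was -0.41 in DoxyNaB/Doxy (adjusted p = 1.22e-05). HDAC2 levels ran from 3.06 to 3.49 (median 3.27) in Ctl, 2.77 to 3.20 (median 2.82) in NaB, 3.1 to 3.39 (median 3.25) in Doxy and 2.54 to 3.04 (median 2.85) in DoxyNaB. Ctl and NaB overlapped, while Doxy and DoxyNaB did not. The other tested HDAC2 probe, at chr6:114364037-114364096, gave the opposite direction, 0.75 (adjusted p = 0.000206) and 0.67 (adjusted p = 0.000625), so that the sign for HDAC2 depends on the probe. HDAC8, an X-linked class I enzyme that acts on cohesin, changed by -0.17 ± 0.15 (adjusted p = 0.311) and its 3 other probes by -0.43, -0.37 and -0.37, of which 2 passed the adjusted p. HDAC8 levels ran from -0.98 to -0.40 (median -0.82) in Ctl, -1.41 to -0.49 (median -0.96) in NaB, -0.79 to -0.54 (median -0.66) in Doxy and -1.62 to -0.38 (median -0.84) in DoxyNaB, with all treatments overlapping.

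The representative HDAC2 and HDAC8 probes are given because their small changes rest on these sequences. The former covers chr6:114368888-114369566 and the latter chrX:71704548-71705330 of NCBI36, both on the minus strand and both across an exon junction, 679 and 783 bases of genome; both are in lower case throughout.
HDAC2: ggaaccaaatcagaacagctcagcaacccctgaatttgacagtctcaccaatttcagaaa
HDAC8: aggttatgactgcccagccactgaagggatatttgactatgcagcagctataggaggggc

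**Figure D2:**
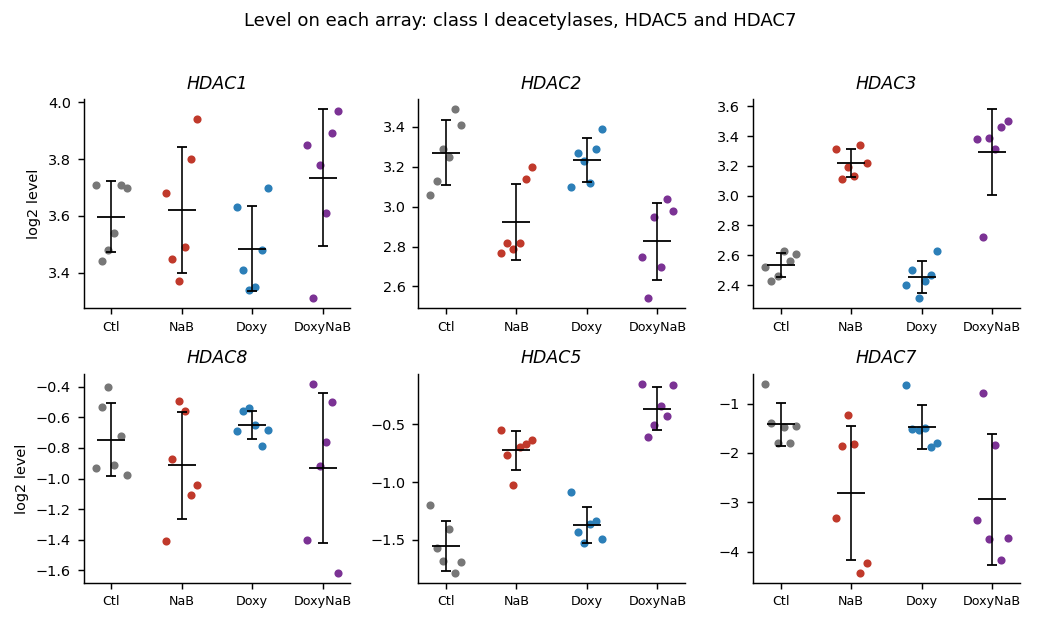
Log2 level (relative to the array's 75th percentile) on each array for the class I deacetylases and for HDAC5 and HDAC7, by treatment; points are arrays in order of experiment, horizontal bars the mean and SD of 6. HDAC1 overlaps in all treatments, HDAC3 and HDAC5 are higher with butyrate, and with butyrate HDAC7 splits into 5 arrays at -1.87 or above and 7 at -3.31 or below.

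The class IIa deacetylases, which shuttle between nucleus and cytoplasm, were mixed. HDAC5 was 0.83 ± 0.07 higher in NaB/Ctl (adjusted p = 1.03e-08) and called at 1.01 in DoxyNaB/Doxy (adjusted p = 7.46e-10). HDAC5 levels ran from -1.79 to -1.20 (median -1.63) in Ctl, -1.03 to -0.55 (median -0.68) in NaB, -1.53 to -1.09 (median -1.40) in Doxy and -0.61 to -0.15 (median -0.39) in DoxyNaB. All butyrate arrays were above all others. Under every other scaling the HDAC5 change in DoxyNaB/Doxy was short of 2-fold. It stood at 0.92 with the 75th percentile over probes, 0.81 with normexp, 0.76 with quantile normalization and 0.45 with the array median. HDAC7 was at -1.40 ± 0.47 in NaB/Ctl, with an adjusted p of 0.0124. In DoxyNaB/Doxy it was called at -1.46 (adjusted p = 0.0094), although the change was negative in 5 of 6 experiments and its SD was 1.35. The HDAC7 changes in NaB/Ctl averaged -0.09 in experiments 2 to 4 and -2.70 in experiments 5 and 6, and stood at -2.71 in experiment 1; in DoxyNaB/Doxy, experiment 3 was also at -2.20. With normexp, HDAC7 was at -0.92 in NaB/Ctl (adjusted p = 0.0293) and -0.50 in DoxyNaB/Doxy (adjusted p = 0.207), not called in either. The 3 other scalings called it lower in both. The methods' paired t-test gave an adjusted p of 0.0657 in DoxyNaB/Doxy. The 5 butyrate arrays with HDAC7 at -1.87 or above were those with mean negative control signals of 110.9 or more, and the other 7 had 69.06 or less. The part of this background in the HDAC7 values was not tested. HDAC4 changed by -0.18 in NaB/Ctl (adjusted p = 0.594) and by -0.76 in DoxyNaB/Doxy (adjusted p = 0.0297), where the DoxyNaB array of experiment 2, the one with the highest negative controls, read -5.44. HDAC6, the cytoplasmic tubulin deacetylase of class IIb, changed by 0.04 in NaB/Ctl (adjusted p = 0.699) by its representative probe. Its other tested probe changed by 0.60, also not past the adjusted p.

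Acetyltransferases and coactivators did not move in the same direction. KAT2A (GCN5), the catalytic subunit of SAGA, fell 2.56-fold (log2 -1.36 ± 0.06, SE, n = 6, adjusted p = 6.53e-13). KAT2A levels ran from 1.99 to 2.54 (median 2.21) in Ctl and from 0.53 to 1.13 (median 0.86) in NaB, and from 2.04 to 2.45 (median 2.14) in Doxy and 0.65 to 1.07 (median 0.92) in DoxyNaB. All butyrate arrays were below all others. KAT5 (Tip60), the catalytic subunit of NuA4, fell 2.15-fold (log2 -1.11 ± 0.07, adjusted p = 8.5e-11), or -0.828 with normexp. HAT1, which acetylates new histone H4, changed by -0.09 (adjusted p = 0.36), EP300 by 0.18 (adjusted p = 0.343) and its paralog CREBBP by -0.49 (adjusted p = 0.0928), with 1 experiment at -2.05. KAT2B (PCAF), the paralog of KAT2A, changed by 0.96 in NaB/Ctl (adjusted p = 0.0104) and 0.99 in DoxyNaB/Doxy (adjusted p = 0.00877), but reached that detection limit on just 3 of the 6 Ctl arrays and passed the filter through Doxy and DoxyNaB.

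NCOA1 (SRC-1), a nuclear receptor coactivator that recruits acetyltransferases, rose 2.67-fold (log2 1.42 ± 0.07, adjusted p = 4.3e-12). NCOA1 levels ran from -2.53 to -2.10 (median -2.30) in Ctl, -1.16 to -0.69 (median -0.87) in NaB, -2.41 to -2.04 (median -2.20) in Doxy and -1.03 to -0.71 (median -0.91) in DoxyNaB, with no overlap between arrays with and without butyrate. Its NaB/Ctl change was under 2-fold with normexp (0.862) and the array median (0.668). Its relative NCOA3 rose 2.12-fold in NaB/Ctl (log2 1.08, adjusted p = 7.27e-06), a change of 1.00 without experiment 5, and of 0.591 with normexp, 0.533 with quantile normalization, 0.331 with the array median and 0.985 with the 75th percentile over probes. The third gene of the family, NCOA2, was not tested. Of the bromodomain genes, BRD2 changed by 0.04 (adjusted p = 0.618) and BRD3 was lower by its representative probe, -0.40 (adjusted p = 0.00699). The other tested BRD3 probes were at -0.285 (adjusted p = 0.0183) and 0.53 (adjusted p = 0.155).

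Probes of 2 of these genes and of the co-repressor subunit TBL1XR1 follow, again in lower case throughout and from NCBI36. They are NCOA1, higher, at chr2:24834409-24834468 and KAT5, lower, at chr11:65242938-65242997, both on the plus strand. The second probe of TBL1XR1, lower, is at chr3:178226857-178226916 on the minus strand.
NCOA1: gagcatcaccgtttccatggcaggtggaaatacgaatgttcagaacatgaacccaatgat
KAT5: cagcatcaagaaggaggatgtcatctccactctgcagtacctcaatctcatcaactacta
TBL1XR1: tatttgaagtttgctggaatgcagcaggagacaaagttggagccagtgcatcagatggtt

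NuRD couples deacetylation to chromatin remodelling; MTA proteins are its scaffold, CHD3 and CHD4 its remodelling motors, and MBD3 a methyl-binding-domain subunit. Apart from HDAC1, HDAC2, RBBP4 and RBBP7, all 6 tested NuRD members were lower in NaB/Ctl past the adjusted p, 4 of them over 2-fold. Of all genes, 29.0% were lower past that p. HDAC1, given above, changed by 0.02 (adjusted p = 0.773), and the HDAC2 probes gave opposite signs. MTA3 fell 3.59-fold (log2 -1.84 ± 0.14, adjusted p = 1.73e-09), with levels from -0.14 to 0.28 (median 0.19) in Ctl, -2.38 to -1.10 (median -1.73) in NaB, -0.18 to 0.30 (median 0.14) in Doxy and -2.48 to -1.12 (median -1.98) in DoxyNaB. MTA1 fell 3.34-fold (log2 -1.74 ± 0.08, adjusted p = 1.23e-12), with levels from 1.13 to 1.96 (median 1.31) in Ctl, -0.53 to 0.09 (median -0.38) in NaB, 1.17 to 2.01 (median 1.24) in Doxy and -0.43 to 0.34 (median -0.36) in DoxyNaB. For both genes every butyrate array was below every other array.

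MTA2 fell 2.30-fold (log2 -1.20 ± 0.09, adjusted p = 5.62e-10). MTA2 levels ran from 2.30 to 3.53 (median 2.54) in Ctl, 1.07 to 2.43 (median 1.33) in NaB, 2.05 to 3.19 (median 2.24) in Doxy and 1.07 to 2.18 (median 1.46) in DoxyNaB. Ctl and NaB overlapped through the NaB array of experiment 1, whose arrays were the highest in each treatment, while each experiment by itself gave a fall, between -1.41 and -1.03. CHD3 fell 2.26-fold (log2 -1.17, adjusted p = 1.1e-07), or -0.955 with normexp. CHD4 and MBD3 were lower by less, at -0.58 (adjusted p = 3.95e-05) and -0.69 (adjusted p = 0.000141), and MBD3 did not pass in DoxyNaB/Doxy (-0.40, adjusted p = 0.0117).

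RBBP4 and RBBP7, histone chaperones held in common by NuRD and SIN3, were lower too. RBBP4 fell 2.49-fold (log2 -1.32 ± 0.08, adjusted p = 3.2e-11). RBBP4 levels ran from 3.68 to 4.21 (median 4.05) in Ctl, 2.30 to 3.13 (median 2.64) in NaB, 3.62 to 4.13 (median 3.98) in Doxy and 2.23 to 2.89 (median 2.68) in DoxyNaB. All 4 RBBP4 probes gave a fall, from -1.42 to -1.12, and the arrays with and without butyrate did not overlap. RBBP7 was at -0.71 (adjusted p = 1.33e-08).

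Of the 5 members counted under SIN3 apart from these chaperones, 3 were higher past the adjusted p in NaB/Ctl and 0 lower. Of all genes, 40.6% were higher and 29.0% lower past that p. Of 11 further SIN3 subunits tested outside the members, 6 were higher and 3 lower past it. SAP18, which also takes part in splicing, rose 2.46-fold (log2 1.30 ± 0.09, adjusted p = 3.35e-10). SAP18 levels ran from -2.44 to -2.12 (median -2.35) in Ctl, -1.37 to -0.72 (median -1.02) in NaB, -2.32 to -1.81 (median -2.07) in Doxy and -1.0 to -0.58 (median -0.68) in DoxyNaB, with no overlap. Its NaB/Ctl change was under 2-fold with normexp (0.745), quantile normalization (0.87) and the array median (0.546). The scaffold SIN3B was 0.57 higher (adjusted p = 0.000304) and SUDS3 0.37 higher (adjusted p = 0.000431). With the array median SIN3B was at -0.18 (adjusted p = 0.533) and SUDS3 at -0.38 (adjusted p = 0.14), and both were positive under the 3 other scalings. The scaffold SIN3A changed by 0.17 (adjusted p = 0.119) and SAP30 by -0.03 (adjusted p = 0.78).

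TBL1XR1, the WD40 subunit of NCoR that also binds beta-catenin, had the lowest change of all members, a 4.03-fold fall (log2 -2.01 ± 0.14, SE, n = 6, adjusted p = 2.69e-10). TBL1XR1 levels ran from 0.10 to 1.09 (median 0.76) in Ctl, -2.55 to -0.85 (median -0.98) in NaB, 0.42 to 1.09 (median 0.94) in Doxy and -1.95 to -1.16 (median -1.61) in DoxyNaB. Arrays with and without butyrate did not overlap, and the probe printed above gave -1.41 and, with doxycycline, -2.02. NCOR1, the scaffold of that complex, was at -0.58 (adjusted p = 0.00861) by its representative probe and -0.08 (adjusted p = 0.589) by its other one, and at -0.77 (adjusted p = 0.00121) in DoxyNaB/Doxy, where its representative probe had 1 array without a value and 5 experiments. RCOR1, the CoREST scaffold, was 0.29 higher in NaB/Ctl (adjusted p = 0.0134), but at -0.46 with the array median (adjusted p = 0.0882). It was positive under the 3 other scalings.

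**Figure D3:**
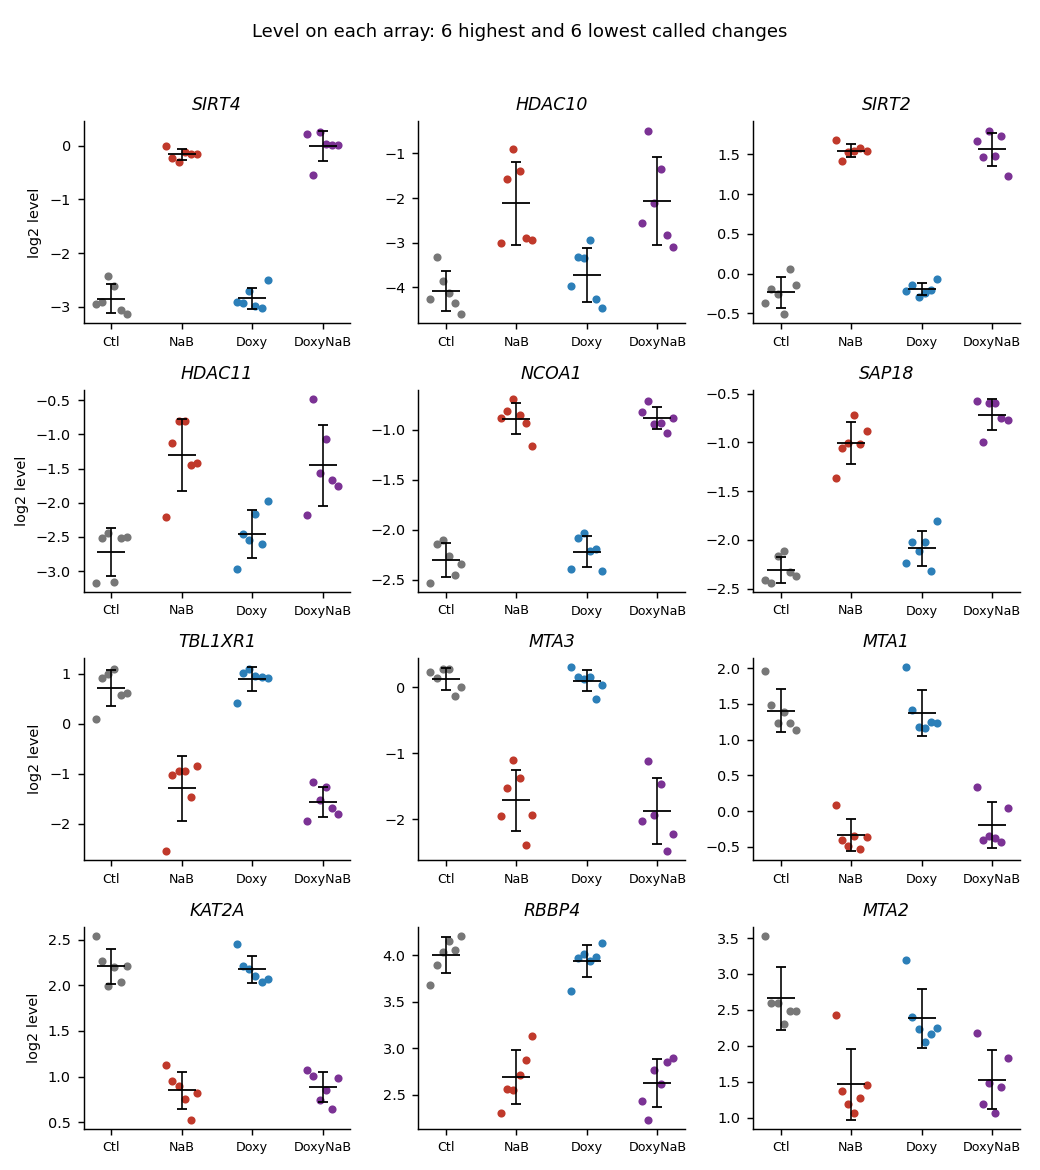
Log2 level (relative to the array's 75th percentile) on each array for the 6 members with the highest and the 6 with the lowest called change in NaB/Ctl. Points are arrays in order of experiment, horizontal bars the mean and SD of 6 arrays; the NaB and DoxyNaB arrays stand apart from Ctl and Doxy for SIRT4, SIRT2, NCOA1, SAP18, TBL1XR1, MTA3, MTA1, KAT2A and RBBP4, while HDAC10, HDAC11 and MTA2 overlap in part.

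With doxycycline present, butyrate again called 16 of 43 members in DoxyNaB/Doxy, where 31.1% of all genes tested were called, 8 higher (18.7%) and 8 lower (12.5%). By the adjusted p alone 32 passed, against 68.4% of all genes, 17 higher (38.1%) and 15 lower (30.3%), and 20 did not overlap, against 43.4%. These shares of the members were near those of the array. NaB/Ctl and DoxyNaB/Doxy share no array, though they share the experiments. Of the 16 called in each, 14 were called in both, all in the same direction; HDAC11 and MTA2 were called in NaB/Ctl only, and HDAC5 and HDAC7 in DoxyNaB/Doxy only. No member passed the test of the difference itself, the interaction (0 of 43, where 1.35% of all genes did), whose lowest adjusted p was 0.198. An unadjusted p under 0.05 in the interaction was found for 5 of 43 members and for 1901 of all 15158 genes tested, a near share. The methods' t-test after Benjamini-Hochberg adjustment called 0 members. The interaction changes ran from -0.51 to 0.58.

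No member was called with doxycycline alone (0 of 43 in Doxy/Ctl, where 0.554% of all genes were called by limma). The methods' t-test called 0 members after adjustment. In Doxy/Ctl, 5 members had an unadjusted p under 0.05, as did 2017 of all 15158 genes tested, a near share. Its changes ran from -0.28 for MTA2 to 0.53 for EP300. In DoxyNaB/NaB, HDAC5 alone passed (1 of 43, where 2.72% of all genes did), 0.36 ± 0.07 higher (log2, SE, adjusted p = 0.00649) in 6 of 6 experiments. The HDAC5 levels given above overlapped between NaB and DoxyNaB, and the adjusted p was 0.142 without the block and 0.0258 with the 75th percentile taken over probes. NaB/Ctl and Doxy/Ctl share the Ctl arrays, and DoxyNaB/NaB shares its arrays with both butyrate comparisons.

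Scaling set how many members passed 2-fold. The median NaB/Ctl change of all tested probes was 0.17 as scaled here, 0.08 with normexp, -0.09 with quantile normalization, 0.07 with the 75th percentile over probes and -0.58 with scaling to the array median. The 8 higher and 8 lower called members kept their direction under all of these, both as such and relative to that median. Relative to the median, SIRT4 and SIRT2 of the higher and TBL1XR1, MTA3, MTA1, KAT2A, RBBP4 and CHD3 of the lower were past 2-fold under all 5. The split was 3 higher and 6 lower with normexp, 6 and 11 with quantile normalization, 6 and 9 with the percentile over probes, and 3 and 17 with the array median.

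**Figure D4:**
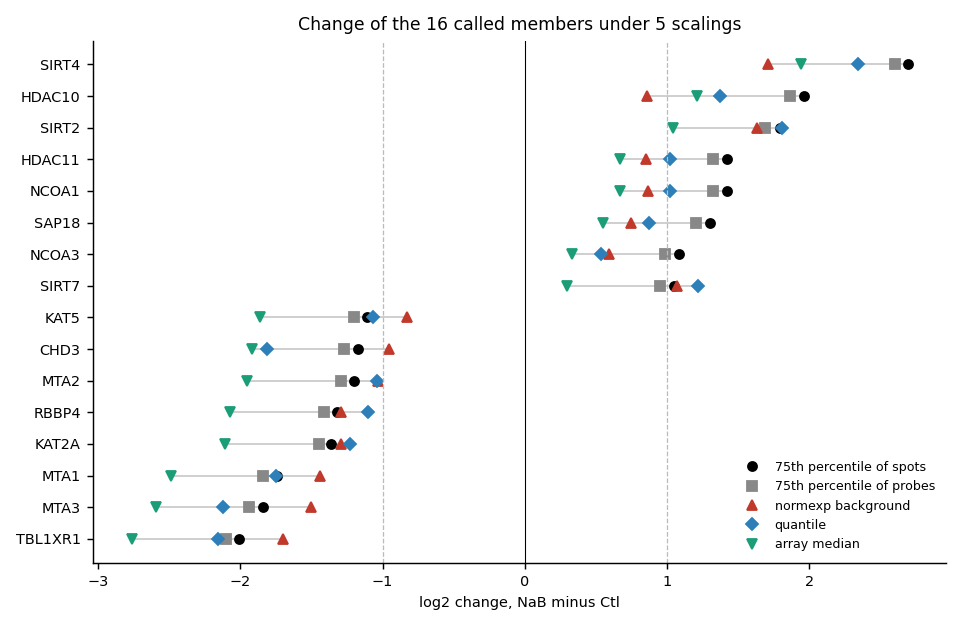
Log2 change in NaB/Ctl of the 16 called members under 5 scalings of the arrays; each symbol is the limma estimate over 6 experiments and dashed lines mark a 2-fold change. The lowest changes, from KAT5 to TBL1XR1, stay negative under every scaling, and NCOA3 and SIRT7 come closest to 0, at 0.33 and 0.30 with the array median.

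The other subunits of these complexes, further acetyltransferases and further acetyl-lysine readers, 101 genes of which 98 were tested, had 6 genes called higher and 17 lower in NaB/Ctl, where 21.0% and 11.5% of all genes were. In DoxyNaB/Doxy 5 were higher and 17 lower, where 18.7% and 12.5% of all genes were. The median change was -0.36 in both, against 0.17 and 0.11 for all genes tested. Of the 39 acetyltransferase genes and their partners, 0 were called higher and 8 lower in NaB/Ctl, beside the same 21.0% and 11.5%. The 3 highest were MLLT3 (AF9, a YEATS-domain reader), at 3.56 (adjusted p = 2.67e-12), SMARCA2 (the BRM remodelling ATPase), at 2.13 (adjusted p = 5.26e-13), and ING1 (a SIN3 subunit that reads methylated histone H3), at 1.90 (adjusted p = 9.07e-13). The 3 lowest were MSL1, scaffold of the KAT8 complex, at -2.77 (adjusted p = 2.01e-13), the NuRD subunit CDK2AP1 at -2.13 (adjusted p = 4.07e-12) and the reader ZMYND8 at -2.12 (adjusted p = 8.91e-12).

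ING1 and JADE1 were the genes of this wider list that passed the interaction by limma (2 of 98, where 1.35% of all genes did). The methods' t-test after Benjamini-Hochberg adjustment passed 0 of all 15158 genes tested in the interaction. ING1 was 1.90 higher without doxycycline and 2.50 higher with it (interaction -0.60, adjusted p = 0.00857), and JADE1, a subunit of the KAT7 acetyltransferase complex, was at -0.70 without and -1.50 with it (interaction 0.80, adjusted p = 0.00021). The other JADE1 probe had an interaction of 0.37 (adjusted p = 0.32).

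Sequence upstream of the start sites was set beside these changes for genes with a single start in RefSeq (GRCh38.p14): SIRT2 and HDAC10, which rose, and MTA1 and KAT2A, which fell. Each line gives the 250 bases before the start, 5′ to 3′ on the gene's strand, with GC boxes (GGGCGG or, on the other strand, CCGCCC) and CCAAT boxes (CCAAT or ATTGG) in capitals; the motifs do not overlap each other. The windows are SIRT2 chr19:38899619-38899868, HDAC10 chr22:50251266-50251515 and KAT2A chr17:42121368-42121617 on the minus strand and MTA1 chr14:105419577-105419826 on the plus strand.
SIRT2: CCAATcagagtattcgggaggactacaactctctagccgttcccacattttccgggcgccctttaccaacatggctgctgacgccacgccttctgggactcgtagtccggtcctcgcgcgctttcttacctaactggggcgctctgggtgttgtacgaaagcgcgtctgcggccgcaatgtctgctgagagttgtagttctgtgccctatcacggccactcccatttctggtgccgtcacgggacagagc
HDAC10: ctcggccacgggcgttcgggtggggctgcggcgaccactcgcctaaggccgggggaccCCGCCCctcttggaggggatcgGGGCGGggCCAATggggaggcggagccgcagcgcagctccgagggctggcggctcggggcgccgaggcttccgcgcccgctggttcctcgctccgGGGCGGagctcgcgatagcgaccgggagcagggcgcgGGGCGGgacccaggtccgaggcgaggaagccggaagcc
MTA1: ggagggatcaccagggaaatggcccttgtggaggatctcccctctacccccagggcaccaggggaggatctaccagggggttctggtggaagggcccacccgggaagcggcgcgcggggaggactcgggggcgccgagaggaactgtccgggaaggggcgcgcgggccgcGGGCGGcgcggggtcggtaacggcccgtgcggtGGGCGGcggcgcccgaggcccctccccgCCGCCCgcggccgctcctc
KAT2A: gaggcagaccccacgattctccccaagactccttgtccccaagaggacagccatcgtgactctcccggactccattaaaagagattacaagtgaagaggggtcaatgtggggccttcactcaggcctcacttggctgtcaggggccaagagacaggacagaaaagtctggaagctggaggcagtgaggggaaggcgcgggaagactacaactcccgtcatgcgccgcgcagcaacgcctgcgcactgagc
GC boxes were found 4 times in HDAC10, 3 times in MTA1 and 0 times in SIRT2 and KAT2A, so that a gene with and a gene without them stands on either side. Of the 45 members, 41 matched the RefSeq windows by symbol, with 67 starts. A GC box stood in 61.2% of these windows, against 42.6% of all 35116 windows, and a CCAAT box in 29.9% against 32%. Among the members called in NaB/Ctl, 4 of 9 windows of higher genes and 8 of 12 windows of lower genes held a GC box, given as a description with no test.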

How the data were processed

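Per the file headers, the deposited processed signal intensity came from Agilent Feature Extraction 9.5.3.1, with background and spatial trend removed within each array and no scaling between arrays. The authors state 6 biological replicates of the experiment and a paired t-test. Control and outlier spots were left out (359 to 795 outliers an array), log2 signals were set relative to the array's 75th percentile (380.2 to 1323), and spots of a probe were averaged. A probe was tested if the well-above-background flag was set on every array of some treatment, with at least 5 of 6 values (18978 of 34127 probes). limma 3.58.1 (lmFit, eBayes, R 4.3.3) was fitted over all 24 arrays with treatment and experiment as terms, and p-values were adjusted over all tested probes by Benjamini-Hochberg. On data simulated for NaB/Ctl (18327 probes), 96 of 100 probes changed 3-fold and 57 of 100 changed 1.5-fold passed the adjusted p. Of 18127 unchanged probes, 5 passed it. With the 2-fold threshold, 96, 1 and 1 passed. The simulated noise was independent between probes, and far fewer probes were changed than the 69.6% of genes that passed in the data. These rates therefore do not describe the real comparison. Same-numbered arrays deviated together in 35 of 36 pairs of arrays (r 0.219 to 0.853; NaB and DoxyNaB of experiment 3, -0.224), and the study's paired t-test made the experiment the block. The signal over background and the number of arrays limit the precision. Members and gene lists were chosen with earlier results of these data known. Named were all members; array values were given for class I deacetylases, the 6 highest and 6 lowest called in NaB/Ctl, and members past 0.01 in a doxycycline comparison or the interaction; and, of the wider list, the 3 highest, the 3 lowest and those past the interaction. A probe annotated by another name whose accession belongs to HDAC4 was left out, since members were matched by printed name. Alternatives were other scalings, background corrections, filters, blocks, thresholds and subsets of arrays; after the data were seen, the 75th percentile over probes was added. Protein sequences were not used here. Promoters came from RefSeq (GRCh38.p14). One cell type marker is not reported here and was left out of the summed marker levels.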

Additional observations from a re-analysis of the deposited data

Results flagged for a closer look

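In 24 of 172 sets of 5 or 6 arrays (14%) an array stood far from the other arrays of its treatment, by Dixon's test; chance flags about 1 in 20 sets. Experiment 1 held 20 of these arrays and experiment 2 the other 4, all of the latter on the DoxyNaB array with the highest negative controls.

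On the experiment 1 arrays, log2 levels were high for HDAC6 (Ctl 1.5, NaB 1.38, Doxy 1.39), MTA2 (Ctl 3.53, NaB 2.43, Doxy 3.19), HDAC7 (Ctl -0.60, Doxy -0.62), MTA1 (NaB 0.09, Doxy 2.01), CHD4 (Ctl 3.64, Doxy 3.40), SIRT6 (Doxy -0.20), SIRT7 (Ctl 2.50), BRD3 (Ctl 0.92) and MBD3 (NaB 0.77). They were low for KAT2B (NaB -5.75), RBBP4 (Doxy 3.62) and TBL1XR1 (NaB -2.55, Doxy 0.42). On the DoxyNaB array of experiment 2, levels were low for HDAC3 (2.72), HDAC4 (-5.44), SIRT4 (-0.54) and SAP30 (0.31).

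Of these genes, KAT2B changed by -0.97 in experiment 1 of NaB/Ctl, against 0.69 to 2.22 in the other experiments, and HDAC6 by -0.12, against 0.03 to 0.11. MTA1, MTA2, SIRT7, RBBP4, TBL1XR1, BRD3, CHD4 and MBD3 had the same sign in all 6 experiments of NaB/Ctl, and HDAC7 and SIRT6 had both signs among the other experiments. Without experiment 1, 17 members were called in NaB/Ctl and 16 in DoxyNaB/Doxy.

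The butyrate change of ING1 (interaction -0.60) and JADE1 (interaction 0.80) differed with doxycycline by the interaction test in limma. Neither passed the methods' t-test after adjustment, and the other JADE1 probe did not pass in limma.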

How the results depend on the processing

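With the replicate block removed, 16 members were called in NaB/Ctl and 15 in DoxyNaB/Doxy, and HDAC5 was no longer called in DoxyNaB/NaB (0 members). All 16 called changes in each butyrate comparison kept their sign under every alternative run. In NaB/Ctl the count of 16 became 9 with normexp and 28 with no fold threshold. In DoxyNaB/Doxy it became 32 with no fold threshold and 26 at 1.5-fold. In Doxy/Ctl and in the interaction, the methods' unadjusted t-test called 1 member each in place of 0. In DoxyNaB/NaB the single call became 0 with normexp, quantile normalization, the array median, the percentile over probes, no filter on dim probes, no block, only the arrays compared, the adjusted t-test, a 2-fold threshold, experiments 2 to 4 only and experiments 5 and 6 only. Leaving out each experiment gave 14 to 17 members in NaB/Ctl, 14 to 16 in DoxyNaB/Doxy, 0 to 1 in DoxyNaB/NaB and 0 to 0 in Doxy/Ctl and the interaction; the call in DoxyNaB/NaB held only without experiment 2. Without the arrays of highest negative controls, 17 and 15 members were called in the butyrate comparisons. Within experiments 2 to 4 the counts were 15 and 14, and within experiments 5 and 6 they were 18 and 16. HDAC7 passed in NaB/Ctl at -1.79 without experiment 3 and -1.58 without experiment 2, and in DoxyNaB/Doxy lost its call without experiments 1, 3, 4, 5 or 6 (-1.69 to -1.21). KAT2B passed in NaB/Ctl at 1.34 without experiment 1. With all experiments, no other scaling called it in NaB/Ctl. Its change was 0.86 with the percentile over probes (adjusted p = 0.0197) and 0.22 with normexp (adjusted p = 0.425). It was 0.21 with the array median (adjusted p = 0.615) and -0.25 with quantile normalization (adjusted p = 0.632). The representative probes of HDAC4, CREBBP, KAT2B and NCOR1 were not well above background on all 24 arrays, which limits these genes.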
